A study of Homo sapiens and Mus musculus with 4 samples.

Results

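The genes described here are 10 transcription factors known from effector lymphocytes, the T cells and natural killer (NK) cells that have taken up a killing, helper or regulatory role. They were chosen as a fixed list of human symbols (TBX21, EOMES, ID2, ZEB2, BATF, BATF3, BHLHE40, ZNF683, NFIL3 and FOXP3) and the mouse genes of the same symbol. The choice was made with earlier results of these data known. All 10 symbols were found among the 32738 human genes and 9 among the 27998 mouse genes, so 19 of 60736 genes are described. The mouse counterpart of ZNF683 is named Zfp683, does not share its symbol and is given beside the others as a gene outside the rule.

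The levels come from bulk RNA sequencing of 4 lymphocyte cell lines, 1 library per line, made as the reference for a comparison of single-cell methods. Jurkat is a human CD4+ T-cell leukaemia line, TALL104 a human CD8+ T-cell leukaemia line grown with interleukin-2, EL4 a mouse CD4+ T-cell line and IVA12 a mouse B-lineage hybridoma, that is, a fusion cell that secretes antibody. No line received a further treatment or carried an allele named in the labels. Each line is a transformed culture kept in its own medium, so the line, its medium and, for TALL104, interleukin-2 cannot be told apart. In bulk RNA, fewer cells of a type and less RNA per cell cannot be told apart either. Ratios between lines were taken within a species only. Levels, family shares and nearest genes are also set side by side over the 4 lines, as descriptions.

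T-bet (TBX21) and Eomesodermin (EOMES) are T-box proteins that switch on the genes of killing and interferon-gamma production. ID2 has no DNA-binding region of its own and holds E proteins, which keep lymphocytes in early states, away from DNA. BATF and BATF3 pair with JUN proteins and bind DNA beside IRF4 or IRF8, while BHLHE40, NFIL3, ZNF683 and ZEB2 are mostly known as repressors that shape cytokine output, NK and innate lymphoid development, tissue residence and terminal effector states. FOXP3 is the factor that defines regulatory T cells.

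Levels are in FPKM, fragments scaled to gene length and to the reads of the library, which can be compared between genes because they are set per length. The library totals by which the FPKM were scaled, as solved from the values, were 25286728 to 34783047 reads. They need not be all the reads sequenced. Reads per gene were recovered from the FPKM, and each interval is a 95% exact interval that covers counting error only, since no line had a second library and no test between lines was possible. A gene was called detected at 1 FPKM and called different at more than 1.5-fold on FPKM + 1. All 6 T-cell markers (CD3E, CD3D, CD3G, CD2, CD5 and LCK) were detected in Jurkat, TALL104 and EL4, with summed levels of 943, 745 and 626 FPKM, and 2 of 6 in IVA12 with a sum of 11.9 FPKM. IVA12 held Cd79b at 163 FPKM and Ms4a1 at 46.5 FPKM, but the B-cell markers Cd79a and Pax5 were at 0.0543 and 0.156 FPKM, and 6 of 6 plasma-cell markers were detected. NK-cell markers were detected in TALL104 for 4 of 6 genes, with a sum of 667 FPKM against 11.8 FPKM in Jurkat. NKG7 alone made up most of both sums, at 605 FPKM in TALL104 and 11.6 FPKM in Jurkat. KLRD1 and KLRF1 were below 1 FPKM in TALL104.

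ID2 and BHLHE40 reached the highest levels of the members, in TALL104, where BATF3, FOXP3 and ZEB2 were below 1 FPKM. At 1 FPKM, 6 of 10 members were detected in Jurkat and 7 of 10 in TALL104, beside 33.2% and 33.1% of all human genes. In the mouse pair, 4 of 9 members were detected in EL4 and 2 of 9 in IVA12, beside 34.3% and 35.0% of all mouse genes. Of the 9 symbols held by both species, 4 (ID2, BATF, BHLHE40 and NFIL3) were detected in all 3 T-cell lines, 2 of these (ID2 and NFIL3) in IVA12 as well, and 2 (ZEB2 and FOXP3) in no line.

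**Figure D1:**
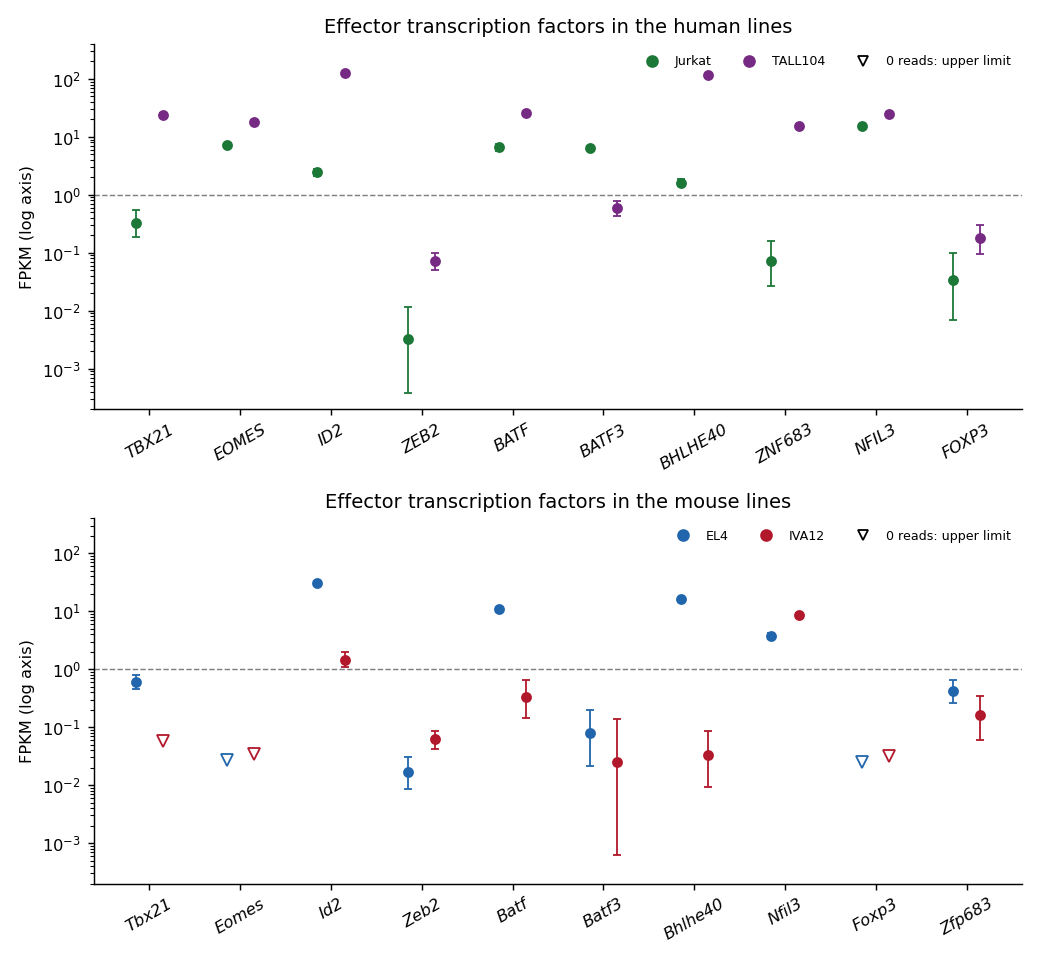
Level of each effector factor in the 4 libraries, as FPKM on a log scale, with 1 point per library and bars for the 95% counting interval; open triangles mark the upper limit at 0 reads, and the dashed line marks 1 FPKM. ID2 and BHLHE40 in TALL104 are the highest points, at 126 and 117 FPKM, and Zfp683 is shown although it falls outside the symbol rule.

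Between the human lines, 7 of 10 members were over 1.5-fold higher in TALL104, 1 was higher in Jurkat and 2 were neither. Over all human genes the share was 11.4% for TALL104 and 13.8% for Jurkat, and over the 12214 genes with at least 1 FPKM in either line it was 28.4% and 34.2%. Because the members were chosen with earlier results known, such counts beside all genes are descriptions and were not tested. The members' median log2 ratio of Jurkat over TALL104 was -1.54 on FPKM + 1, while the median of the genes with at least 1 FPKM in either line was 0.10. Between the mouse lines, 4 of 9 members were higher in EL4 and 1 in IVA12. Over all mouse genes the share was 9.75% for EL4 and 11.2% for IVA12, and over the 10801 genes with at least 1 FPKM in either line it was 23.8% and 26.5%. Among the members with at least 1 FPKM in either line, 3 were higher in EL4 and 1 in IVA12, since Tbx21 was below that level. The median log2 ratio of EL4 over IVA12 was 0.07 for the members, 5 of which were below 1 FPKM in both lines, and -0.04 for those 10801 genes.

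**Figure D2:**
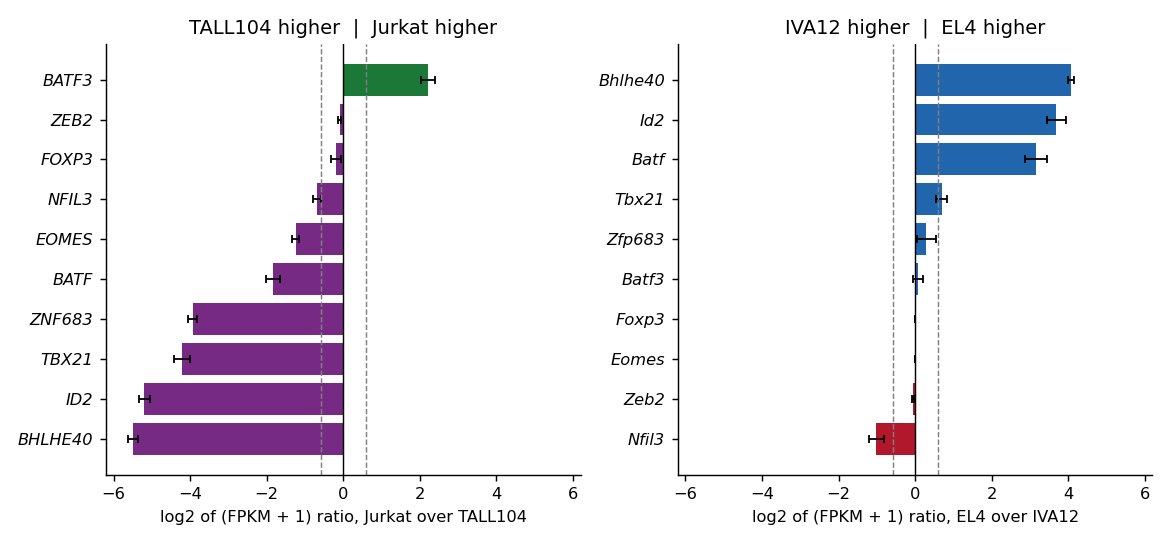
Log2 ratio of each effector factor on FPKM + 1, Jurkat over TALL104 and EL4 over IVA12, with error bars for the 95% counting interval and dashed lines at 1.5-fold. BATF3 is the one human member past the line on the Jurkat side, and Nfil3 the one mouse member past it on the IVA12 side. Zfp683 lies outside the symbol rule.

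**Figure D3:**
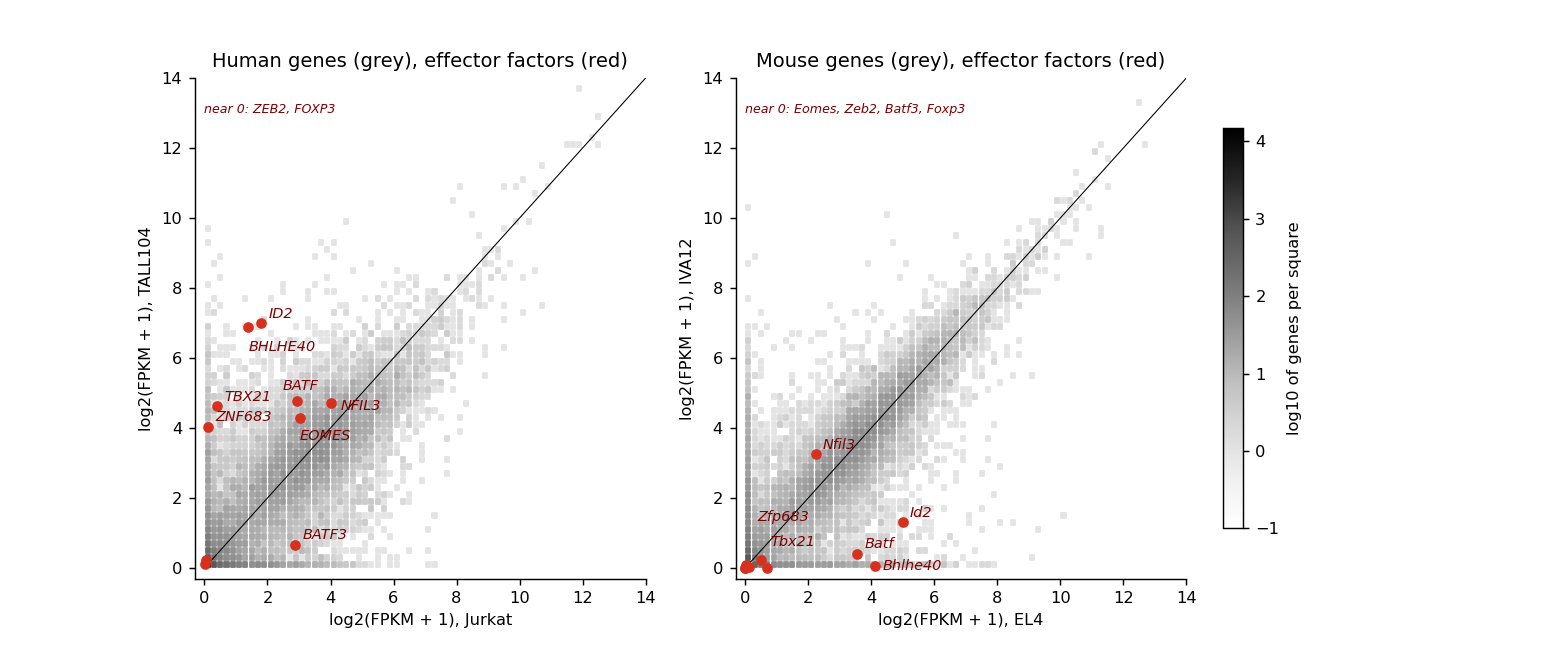
Density of all human and all mouse genes (grey squares) by their log2 FPKM + 1 in the lines of a species, with the effector factors in red and a line at equal levels. ID2 and BHLHE40 sit far above the human line at 126 and 117 FPKM in TALL104, and Id2, Batf and Bhlhe40 far below the mouse line. Zfp683 lies outside the symbol rule.

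The T-box factors separated the human lines by kind as well as by amount. TBX21 (ENSG00000073861, hg19 chromosome 17, 45810602 to 45823488, plus strand) stood at 0.330 FPKM in Jurkat (15 reads) and 23.7 FPKM in TALL104 (878 reads). The TALL104 level was 71.8 times the Jurkat level (interval 43.3 to 129), and the log2 ratio of Jurkat over TALL104 on FPKM + 1 was -4.21 with a counting standard error of 0.10. EOMES (ENSG00000163508, hg19 chromosome 3, 27757440 to 27764202, minus strand) stood at 7.16 FPKM in Jurkat (912 reads) and 18.4 FPKM in TALL104 (1906 reads). Thus EOMES was detected in both human lines and was 2.56 times higher in TALL104 (interval 2.37 to 2.78). Of the summed FPKM of TBX21, EOMES and their brain relative TBR1, EOMES held 95.3% in Jurkat, while TBX21 held 56.3% and EOMES 43.7% in TALL104.

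Neither mouse line held much of either factor. Tbx21 (ENSMUSG00000001444, mm10 chromosome 11, 97098071 to 97115331, minus strand) stood at 0.613 FPKM in EL4 (49 reads) and at 0 reads in IVA12, where 3 reads would be 0.0477 FPKM. Against that floor, counted in the 1 IVA12 library, it was at least 12.8-fold higher in EL4, and the 95% interval of the ratio, which allows for the error of both counts, began at 10.1. On FPKM + 1 its log2 ratio of EL4 over IVA12 was 0.69 with a counting standard error of 0.08, so its call at 1.5-fold lies within the 95% counting interval of the limit. Eomes (ENSMUSG00000032446, mm10 chromosome 9, 118478212 to 118486132, plus strand) had 0 reads in both lines, which allows, at 3 reads, 0.0225 FPKM in EL4 and up to 0.0286 in IVA12. IVA12 instead held 11.2 FPKM of Tbr1, against 0.0170 FPKM in EL4.

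The promoters of 4 members are printed from RefSeq for GRCh38.p14, a newer build than the hg19 of the levels, as windows of 300 bases that end 50 bases after the start site. They show base composition and motif letters at the starts of ID2 and BHLHE40, which reached the highest levels, and of the T-box pair. Capitals mark any of 13 motifs searched on both strands, which are given after the sequences.
ID2, chr2:8681806-8682105, plus strand: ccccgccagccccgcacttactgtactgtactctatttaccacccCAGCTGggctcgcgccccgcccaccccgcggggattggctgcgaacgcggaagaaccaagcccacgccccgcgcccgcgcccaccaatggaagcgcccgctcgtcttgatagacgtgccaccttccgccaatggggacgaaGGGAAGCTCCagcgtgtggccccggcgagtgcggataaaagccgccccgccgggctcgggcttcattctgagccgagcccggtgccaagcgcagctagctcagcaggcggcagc
BHLHE40, chr3:4979187-4979486, plus strand: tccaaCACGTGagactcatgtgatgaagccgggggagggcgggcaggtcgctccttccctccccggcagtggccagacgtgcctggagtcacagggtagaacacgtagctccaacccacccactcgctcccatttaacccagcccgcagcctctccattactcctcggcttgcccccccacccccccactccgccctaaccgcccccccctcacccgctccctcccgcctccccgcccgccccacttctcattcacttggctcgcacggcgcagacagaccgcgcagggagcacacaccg
TBX21, chr17:47732986-47733285, plus strand: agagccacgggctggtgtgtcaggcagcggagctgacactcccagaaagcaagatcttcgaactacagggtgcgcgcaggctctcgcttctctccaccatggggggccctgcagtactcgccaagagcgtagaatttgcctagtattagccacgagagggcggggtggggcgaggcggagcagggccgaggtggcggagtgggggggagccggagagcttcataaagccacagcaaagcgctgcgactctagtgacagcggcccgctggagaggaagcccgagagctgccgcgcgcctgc
EOMES, chr3:27722274-27722573, minus strand: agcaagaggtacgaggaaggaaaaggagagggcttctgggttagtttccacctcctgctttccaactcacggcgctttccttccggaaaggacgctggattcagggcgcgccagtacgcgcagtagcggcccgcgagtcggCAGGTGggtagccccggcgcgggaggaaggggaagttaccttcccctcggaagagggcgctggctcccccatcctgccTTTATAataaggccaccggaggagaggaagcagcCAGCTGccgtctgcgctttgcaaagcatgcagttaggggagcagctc

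The share of G and C was 69% in ID2, 68% in BHLHE40, 65% in TBX21 and 61.7% in EOMES, against a median of 58.7% over 35116 windows of the same length. They held 33, 22, 23 and 21 CpG pairs, against a median of 14. Windows were found for 9 of the 10 human members, 11 in all, and those not printed ranged more widely. Both windows of ZNF683 (56% and 55.7%, with 3 and 2 CpG pairs) lay below the medians. So did those of BATF (46%, with 7) and FOXP3 (41.3%, with 10). The window of ZEB2 lay below the median in G and C (49%) and at the median in CpG pairs (14). The higher window of NFIL3 reached 83%. Of the 6 motifs of the members' own families and of STAT factors, CACGTG, the E-box bound by BHLHE40, stood 245 bases before the BHLHE40 start, and 7.26% of all windows held it. CAGGTG, the E-box bound by ZEB proteins, stood 109 bases before the EOMES start, and 20.6% of all windows held it. The other 4 were in none of the 11 member windows. The STAT motif TTCNNNGAA was in 7.66% of all windows and the T-box motif AGGTGT, which can overlap the ZEB E-box, in 11.4%. The AP-1 motif TGANTCA, bound by BATF with JUN proteins, was in 7.71% and the NFIL3 motif TTANGTAA in 2.18%. The remaining 7 motifs belong to other factors. The E-box CAGCTG, held by 17.9% of all windows, was in the ID2 and EOMES windows, and the NF-kB motif (25.6%) in those of ID2 and BATF. The TATA box TATAAA (11.5%) was in EOMES and FOXP3. BATF also held the RUNX motif TGTGGT (13.1%). It held the GATA motif AGATAA (10.3%) as well. CCGGAAGT (ETS, 4.14%) and TGACGTCA (CRE, 1.85%) were in none. A match is a match of letters, and nothing here measured binding.

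ID2 was among the most abundant human transcripts in TALL104 and a minor part of its family in Jurkat. ID2 (ENSG00000115738, hg19 chromosome 2, 8818975 to 8824591, plus strand), whose start is printed above, stood at 2.46 FPKM in Jurkat (189 reads) and 126 FPKM in TALL104 (7889 reads). The ratio was 51.2 (interval 44.3 to 59.5), and 98.4% of the human genes detected in TALL104 were lower. In the mouse pair Id2 (ENSMUSG00000020644, mm10 chromosome 12, 25093799 to 25097140, minus strand) stood at 30.8 FPKM in EL4 (1259 reads) and 1.46 FPKM in IVA12 (47 reads), 21.1 times higher in EL4 (interval 15.7 to 28.8). The gene was thus high in 1 line of each species, in TALL104 and in EL4.

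The makeup of the ID family differed between lines. Of the summed FPKM of ID1, ID2, ID3 and ID4, ID2 held 4.48% in Jurkat, where ID3 held 67.0% and ID1 28.5%. Its share was 98.0% in TALL104, 82.3% in EL4, and 45.9% for IVA12, where Id3 held 47.7%. The E proteins TCF3, TCF4 and TCF12, which ID proteins bind, summed to 84.3 FPKM (Jurkat), 19.4 FPKM (TALL104), 41.8 FPKM (EL4) and 54.5 FPKM (IVA12). The sum of the ID family over that of the E proteins was 0.653 for Jurkat, 6.63 for TALL104, 0.898 for EL4 and 0.0586 for IVA12. TALL104 was the one line in which ID transcripts exceeded E-protein transcripts per length. In a list of the E proteins and the other ID genes, 4 of 6 were higher in Jurkat and 0 in TALL104, led by ID1 (15.7 against 0.143 FPKM) and ID3 (36.9 against 2.34 FPKM). In mouse 1 of 6 was higher in EL4 (Id3, 6.62 against 1.52 FPKM) and 1 in IVA12 (Tcf4, 0.00341 against 11.5 FPKM).

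**Figure D4:**
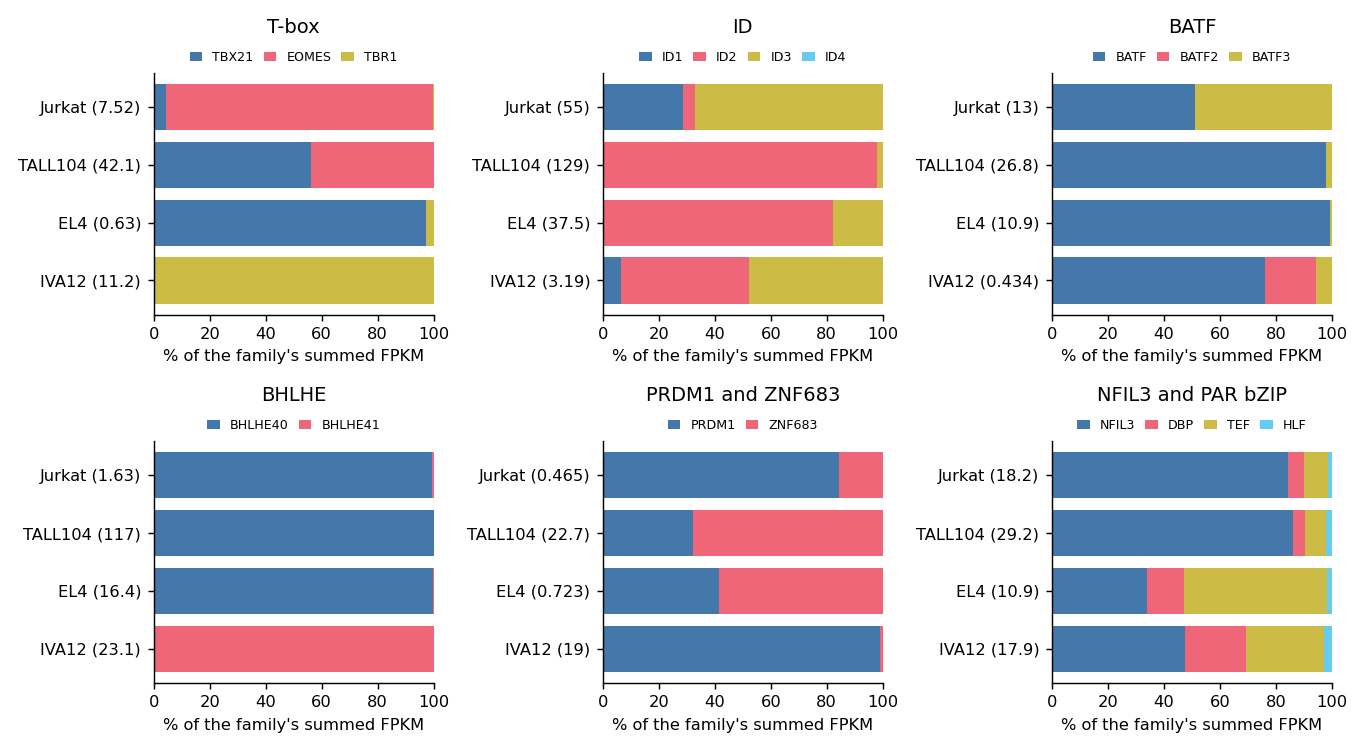
Makeup of the families of the effector factors other than ZEB2 and FOXP3 in the 4 libraries, as the percent of the family's summed FPKM held by each gene. ID2 holds 98.0% of its family in TALL104 and 4.48% in Jurkat, and Bhlhe40 holds 0.145% of its pair in IVA12.

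BATF and BATF3 differed in opposite directions between the human lines. BATF (ENSG00000156127, hg19 chromosome 14, 75988798 to 76013336, plus strand) stood at 6.63 FPKM in Jurkat (226 reads) and 26.2 FPKM in TALL104 (729 reads), a ratio of 3.96 (interval 3.40 to 4.62). BATF3 (ENSG00000123685, hg19 chromosome 1, 212859759 to 212873182, minus strand), best known from dendritic cells, stood at 6.33 FPKM in Jurkat (597 reads) and 0.585 FPKM in TALL104 (45 reads). It was 10.8 times higher in Jurkat (interval 7.98 to 15.0) and the one member higher there. In Jurkat the levels of BATF and BATF3 had overlapping intervals, at 51.1% and 48.8% of their family's sum, while BATF held 97.8% in TALL104.

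In mouse, Batf was a T-cell line gene and Batf3 was close to absent. Batf (ENSMUSG00000034266, mm10 chromosome 12, 85686669 to 85709087, plus strand) stood at 10.8 FPKM in EL4 (332 reads) and 0.331 FPKM in IVA12 (8 reads), a ratio of 32.6 (interval 16.4 to 76.2). Batf3 (ENSMUSG00000026630, mm10 chromosome 1, 191097847 to 191108945, plus strand) had 4 reads in EL4 (0.0779 FPKM) and 1 in IVA12 (0.0248 FPKM). Of the 6 partner genes listed for BATF (IRF4, IRF8, JUN, JUNB, JUND and MAF), 4 were higher in TALL104 and 1 in Jurkat. Their median log2 ratio was -0.95. Both IRF genes were below 1 FPKM in each human line. IRF4 had 2 reads in Jurkat and 2 in TALL104. IRF8, the 1 gene higher in Jurkat, stood at 0.947 FPKM there and 0.260 FPKM in TALL104. The largest ratios were those of MAF, a factor of helper cells, at 0.0288 FPKM in Jurkat and 25.2 FPKM in TALL104, and JUN at 1.48 and 6.24 FPKM. In mouse the partners went against Batf itself, with 4 of 6 higher in IVA12 and 1 in EL4. Irf4, also a plasma-cell factor, stood at 9.73 FPKM (EL4) and 151 FPKM (IVA12), and Jun at 0.800 and 12.7 FPKM.

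BHLHE40 had the largest log2 ratio on FPKM + 1 of the members in both pairs, a rank that in the human pair rests on the pseudocount. With a pseudocount of 0.1 the log2 ratio of Jurkat over TALL104 was -6.09 for BHLHE40 and -6.49 for ZNF683. BHLHE40 (ENSG00000134107, hg19 chromosome 3, 5021122 to 5027008, plus strand), a basic helix-loop-helix repressor that lymphocytes induce on activation, stood at 1.62 FPKM in Jurkat (216 reads) and 117 FPKM in TALL104 (12684 reads). The ratio was 72.1 (interval 63.0 to 82.8), and the log2 ratio of Jurkat over TALL104 on FPKM + 1 was -5.49 with a counting standard error of 0.06. Bhlhe40 (ENSMUSG00000030103, mm10 chromosome 6, 108660629 to 108666925, plus strand) stood at 16.4 FPKM in EL4 (2484 reads) and 0.0336 FPKM in IVA12 (4 reads), a ratio of 488 (interval 191 to 1794). The human BHLHE40 row had 5 reads in the same IVA12 library (0.0515 FPKM), so the 4 mouse reads are no more than those of the human row. IVA12 carried the close relative Bhlhe41 at 23.1 FPKM against 0.0231 FPKM in EL4, so that Bhlhe40 held 0.145% of the sum of the pair. In the other 3 lines BHLHE40 held 99.6% to 100% of it. BHLHE40 and ID2 overlap the antisense genes BHLHE40-AS1 and ID2-AS1, Bhlhe40 overlaps 0610040F04Rik, and whether reads were counted by strand is not given in the sources used here.

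ZNF683, known as Hobit and a relative of PRDM1 (Blimp-1) that marks resident and cytotoxic lymphocytes, was a TALL104 gene. ZNF683 (ENSG00000176083, hg19 chromosome 1, 26688125 to 26701013, minus strand) stood at 0.0725 FPKM in Jurkat (6 reads) and 15.4 FPKM in TALL104 (1037 reads), a ratio of 212 (interval 97.1 to 579). PRDM1 stood at 0.393 FPKM in Jurkat and 7.32 FPKM in TALL104, so that ZNF683 held 67.8% of the sum of the pair in TALL104. Zfp683 (ENSMUSG00000049410, mm10 chromosome 4, 134053838 to 134058996, plus strand) had 20 reads in EL4 (0.423 FPKM) and 6 in IVA12 (0.161 FPKM), below 1 FPKM in both. Prdm1, the regulator of antibody secretion, was at 18.9 FPKM in IVA12 and 0.300 FPKM in EL4.

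NFIL3 was detected in each of the 4 lines, at ratios closer to 1 than those of ID2, BATF and BHLHE40. NFIL3 (ENSG00000165030, hg19 chromosome 9, 94171327 to 94186114, minus strand), a basic leucine zipper repressor needed by NK cells, stood at 15.3 FPKM in Jurkat (1111 reads) and 25.1 FPKM in TALL104 (1486 reads). The ratio was 1.64 (interval 1.52 to 1.78), and the log2 ratio of Jurkat over TALL104 on FPKM + 1 was -0.68 with a counting standard error of 0.05, which puts the 1.5-fold limit within the 95% counting interval. Nfil3 (ENSMUSG00000056749, mm10 chromosome 13, 52967209 to 52981073, minus strand) stood at 3.72 FPKM in EL4 (242 reads) and 8.51 FPKM in IVA12 (436 reads). It was 2.29 times higher in IVA12 (interval 1.95 to 2.69) and the one mouse member higher there. Of the sum with its relatives DBP, TEF and HLF, NFIL3 held 84.2% (Jurkat), 86.0% (TALL104), 34.1% (EL4) and 47.6% (IVA12).

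ZEB2 and FOXP3 were below 0.2 FPKM in each library. ZEB2 (ENSG00000169554, hg19 chromosome 2, 145121931 to 145278624, minus strand) had 2 reads in Jurkat (0.00321 FPKM) and 37 in TALL104 (0.0729 FPKM). Zeb2 (ENSMUSG00000026872, mm10 chromosome 2, 44983632 to 45117395, minus strand) had 11 reads in EL4 (0.0172 FPKM) and 31 in IVA12 (0.0615 FPKM). The related repressor ZEB1 was at 18.1 FPKM in Jurkat and 9.47 FPKM in TALL104. FOXP3 (ENSG00000049768, hg19 chromosome X, 49106899 to 49121262, minus strand) had 3 reads in Jurkat (0.0335 FPKM) and 13 in TALL104 (0.178 FPKM), and it overlaps CCDC22, as ZEB2 overlaps ZEB2-AS1. Foxp3 (ENSMUSG00000039521, mm10 chromosome X, 7573644 to 7595245, plus strand) had 0 reads in both mouse lines, which at 3 reads allows up to 0.0204 (EL4) and 0.0259 FPKM (IVA12).

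The order of the members differed between lines. In Jurkat it ran from NFIL3 through EOMES, BATF and BATF3, whose intervals overlapped in turn, to ID2 and BHLHE40. In TALL104 it ran from ID2 and BHLHE40 to BATF, NFIL3 and TBX21, whose intervals overlapped in turn, and on to EOMES and ZNF683. In EL4 it was Id2, Bhlhe40, Batf and Nfil3, and in IVA12 Nfil3 and Id2. The highest member was NFIL3 in Jurkat and IVA12 and ID2 in TALL104 and EL4. Over the 15550 symbols that both species share once, the 3 genes nearest to ID2 by Euclidean distance of log2 FPKM + 1 over the 4 libraries were OPTN (distance 1.31), BHLHE40 (1.58) and BTG1 (1.81). Those nearest to NFIL3 were DCAF11 (0.325), CARMIL2 (0.457) and PPM1M (0.496), at smaller distances.

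The genes these factors are known to act with were read by lists, described by a count and a median. They were not tested, and the lists were chosen with earlier results of these data known. In the list of type 1 effector genes, which holds the cytokine, granule and receptor genes linked to T-bet and Eomesodermin, 8 of 11 were higher in TALL104 and 1 in Jurkat, with a median log2 ratio of -3.92. The largest ratios were those of IL12RB2, a receptor chain for interleukin-12, at 0.0408 FPKM in Jurkat and 114 FPKM in TALL104, and IL18R1, a receptor chain for interleukin-18, at 0.0199 and 60.4 FPKM. Of the naive and memory factors, 6 of 10 were higher in Jurkat and 2 in TALL104, with a median of 0.79, led by MYB (88.8 against 0.508 FPKM) and ID3. Of the lineage and signal factors, 6 of 12 were higher in TALL104 and 1 in Jurkat, with a median of -0.43 (-0.71 with a pseudocount of 0.1 and -0.27 over genes with at least 1 FPKM in either line). STAT4, which carries the interleukin-12 signal, stood at 2.45 FPKM in Jurkat and 66.6 FPKM in TALL104, and AHR at 0.00432 and 23.8 FPKM. Of the family relatives, 2 of 10 were higher in TALL104 and 1 in Jurkat.

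In the mouse pair 3 of 11 type 1 genes were higher in EL4 and 2 in IVA12, and 7 were below 1 FPKM in both. Prf1, at 0.0151 FPKM in EL4 and 0.674 FPKM in IVA12, counts both as higher in IVA12 and among the 7. The median log2 ratio of EL4 over IVA12 was 0.01 over all 11 and 3.41 once the 7 were left out. Of the genes kept, S1pr5, a receptor for lymphocyte exit from tissue, stood at 102 FPKM in EL4 and had 2 reads in IVA12 (0.0316 FPKM). Il18r1 was at 11.6 and 0.0164 FPKM, and Gzmb, a granule protease, at 8.16 FPKM in EL4 and 0 reads in IVA12. The naive and memory list had 5 of 10 genes higher in EL4 and 2 in IVA12 with a median of 0.52 (1.49 over genes with at least 1 FPKM in either line), led by Tcf7 (597 against 1.14 FPKM) and Myb (64.2 against 7.80 FPKM). Lef1 was at 1.61 FPKM in EL4 and 0 reads in IVA12. The lineage and signal list had 8 of 12 higher in EL4 and 1 in IVA12 with a median of 0.74 (1.48 over such genes), led by Gata3 (25.7 against 0.0199 FPKM) and Tox (23.1 against 0.0156 FPKM). EL4 thus carried Tcf7 and Gata3 at high levels beside Id2, Batf and Bhlhe40, while Tbx21 and Eomes were below 1 FPKM. Of the family relatives, 4 of 10 were higher in IVA12 and 1 in EL4.

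**Figure D5:**
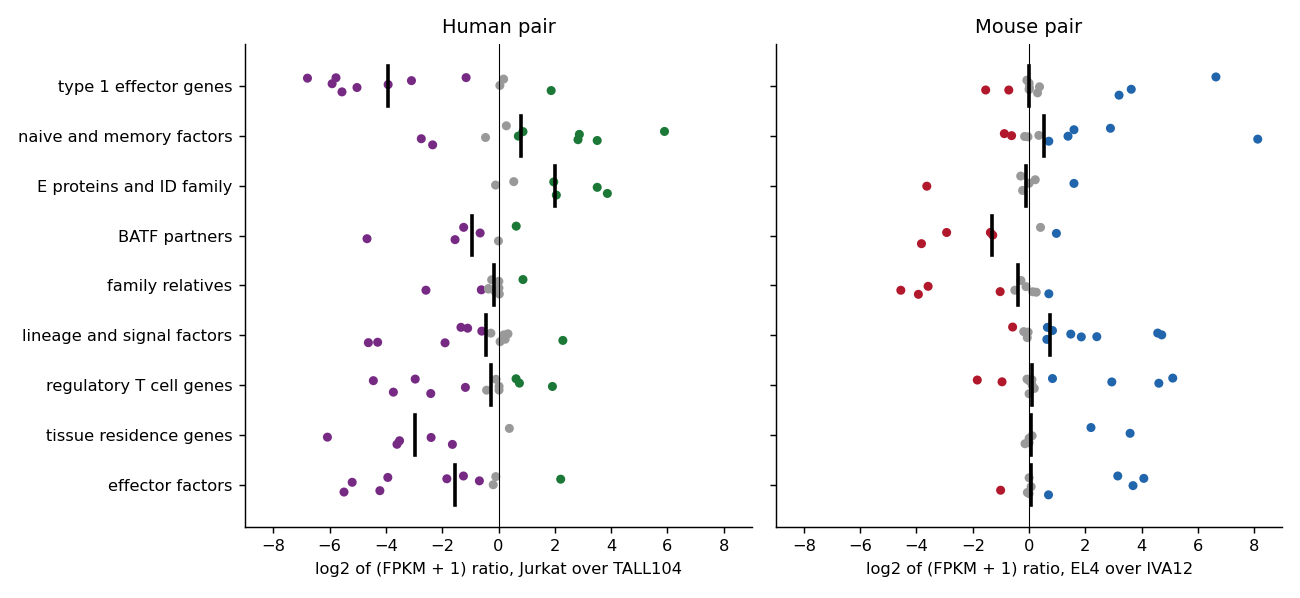
Log2 ratio on FPKM + 1 of every gene of 8 lists and of the effector factors (bottom row), for the human pair and the mouse pair, with the median of each list as a black bar and genes over 1.5-fold in colour. The median of the type 1 effector genes is -3.92 for Jurkat over TALL104 and 0.01 for EL4 over IVA12, where 7 of its 11 genes were below 1 FPKM in both lines.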

How the data were processed

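RNA was extracted with RNeasy and sequenced as stranded messenger RNA libraries with paired reads, 1 per line. The authors aligned reads with STAR 2.5.1b to a combined hg19 and mm10 reference, taken from Cell Ranger 1.2.0, counted reads per gene with featureCounts 1.6.3 and deposited the values as FPKM, both species side by side. Neither the lengths used for FPKM nor the strand setting is given in the sources used here. It had 0 other columns of values.

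FPKM were turned back into reads. The total of each library was solved from the steps between values, and reads over length were then found by continued fractions, allowing lengths of at most 300000 bases and a relative error of 1e-11. All values above 0 came out whole. The recovered reads summed to 98.0% of the total in Jurkat, 98.3% in TALL104 and 99.3% in both mouse lines. Among genes with reads, 22.2% (human) and 72.8% (mouse) had a recovered length equal to the exon length in the annotation, so a common factor may have been missed elsewhere. The reads would then be too few and the intervals too wide. Among the members the recovered length was far below the annotated one for TBX21 (1307 against 2625 bases), Id2 (1270 against 2438 bases) and Batf (955 against 1406 bases). Intervals are exact Poisson for a level and exact conditional (Clopper-Pearson) for a ratio, at 95%. Count models were not used, because 1 library per line leaves no spread to estimate. The scripts were tested on simulated data.

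Ratios were taken on FPKM + 1 with a 1.5-fold limit. Coordinates came from GENCODE annotations on hg19 and mm10, and promoters from RefSeq on GRCh38.p14, for human genes only. Named genes were all members and Zfp683, the T-cell and B-cell markers, in each list and pair the 2 genes with the largest ratio and any at 0 in 1 line with at least 1 FPKM in the other, and the 3 genes nearest to the highest member of a library. Some NK-cell markers, and IRF4 and IRF8 in the human pair, were named in addition. The family sums and the motifs were added after the values were seen, and relatives named there come from the lists. The members and lists were chosen with earlier results of these data known. CCL5 in human and FASLG in mouse were not matched to a single row by symbol. The type 1 list of 12 genes was therefore read for 11 in each species. This is a limit of the match by symbol and does not show that the genes are absent from the data. Other pseudocounts, detection levels, fold limits and the recovered reads were tried as alternatives. So were scalings to equal totals, by the median ratio and without mitochondrially encoded genes. The software was SciPy 1.17.1, pandas 2.3.3 and NumPy 2.4.6 under Python 3.11.15, with matplotlib 3.10.9 for the plots.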

Additional observations from a re-analysis of the deposited data

Results flagged for a closer look

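Reads on human genes in a mouse library, and the reverse, are outside the comparisons and are given here as counts. In IVA12, human ID2 had 4 reads (0.0717 FPKM) and human BHLHE40 had 5 reads (0.0515 FPKM), both above the level of 3 reads. In the same library mouse Id2 had 47 reads (1.46 FPKM) and mouse Bhlhe40 had 4 reads (0.0336 FPKM), so the Bhlhe40 level in IVA12 is no higher than that of the human gene there. Elsewhere the highest were BHLHE40 in EL4 (3 reads, 0.0243 FPKM), Nfil3 in Jurkat (1 read, 0.0142 FPKM) and Id2 in TALL104 (1 read, 0.0278 FPKM). The origin of these reads was not tested.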

How the results depend on the processing

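No paired analysis was possible because each line had 1 library and the labels carry no replicate numbers. For the same reason no library could be left out. Of 90 log2 ratios under the alternatives, for the members with reads and Zfp683, 55 stayed within the 95% counting error. The other 35 moved further, all away from 0, and none changed sign. A smaller pseudocount can only move such a ratio away from 0 and cannot change its sign. For those settings the direction was fixed in advance. Of 96 list medians, 57 stayed within the counting error, 34 moved away from 0 and 5 toward 0, and none changed sign. Of 56 counts, 50 stayed within 1.5 times the reported one. Counting any FPKM above 0 as detection gave 10 members in Jurkat, 7 in EL4 and 6 in IVA12, and a level of 5 FPKM gave 1 in IVA12. The count of mouse members higher in IVA12 was 1 on FPKM + 1, and 2 with a pseudocount of 0.01 and 2 by recovered reads, where Zeb2, at 11 and 31 reads, was the addition. With a pseudocount of 0.1, 1 of the 3 genes nearest to ID2 was kept. At 0 reads, as for Eomes and Foxp3 in mouse, a level worth up to 3 reads cannot be told from absence at this depth.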

Other observations

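Genes of regulatory T cells were read beside FOXP3, which had 3 reads in Jurkat and 13 in TALL104. Of 12 such genes, 5 were higher in TALL104, 3 in Jurkat, and 4 were below 1 FPKM in both. Their median log2 ratio of Jurkat over TALL104 was -0.26 on FPKM + 1, -1.42 with a pseudocount of 0.1, -2.80 with 0.01, and -1.79 over the genes with at least 1 FPKM in either line. IL2RA, the high-affinity interleukin-2 receptor chain, stood at 0.0815 FPKM in Jurkat and 22.6 FPKM in TALL104, and the costimulator ICOS at 0.370 and 17.2 FPKM. In mouse, where Foxp3 had 0 reads, 4 of 12 were higher in EL4 and 2 in IVA12. The largest ratios were those of Ccr4 (33.9 against 0.0142 FPKM) and Ikzf2 (23.7 against 0.0102 FPKM). Below 1 FPKM in both were 7, among them Il2ra (0.779 FPKM in EL4 and 0 reads in IVA12), itself counted as higher in EL4.

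The genes of tissue residence, a state linked to ZNF683, were higher in TALL104 for 5 of 6 and in Jurkat for 0, with a median log2 ratio of -2.96. The chemokine receptor CXCR6 had 0 reads in Jurkat and 66.6 FPKM in TALL104, and the integrin ITGA1 stood at 1.09 and 24.5 FPKM. In mouse, 2 of 6 were higher in EL4 and 0 in IVA12, namely Cxcr6 (11.0 FPKM against 0 reads) and Cd69 (3.62 against 0.00608 FPKM), while Zfp683 stood at 0.423 FPKM in EL4.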
